A study of Mus musculus with 8 samples.

Results

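Fatty acids are the main fuel of the adult heart, and 34 genes of their uptake and mitochondrial oxidation were followed in HVCN1 null and WT mouse hearts. The genes were taken from a list drawn up by function, from the transporter Cd36 to the regulators Ppara and Ppargc1a. All 34 were found among the 39056 genes of the deposited count table, and all 34 passed the filter on low counts, as did 14796 genes in total. The question put to these data was whether loss of the proton channel HVCN1 went with a different level of these transcripts.

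The hearts came from 3-month-old male mice on a C57BL/6 background, with 4 HVCN1-/- animals (the hearts labelled Hv1 null, here HVCN1 null hearts 1 to 4) and 4 WT controls (WT hearts 5 to 8). No treatment other than the gene deletion is given in the labels. Each heart gave 1 poly-A RNA library, so n = 4 per group counts separate animals. The labels and methods name no promoter or cell type that limits the deletion to cardiomyocytes. The whole heart was read as bulk RNA, in which fewer cells of a type and less RNA per cell cannot be told apart.

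In outline, lipoprotein lipase frees fatty acids from circulating triglyceride, CD36 and FABP3 carry them into and through the cardiomyocyte, and ACSL1 joins them to coenzyme A. The carnitine shuttle (CPT1, SLC25A20 and CPT2) then moves the acyl groups into mitochondria, where malonyl-CoA made by ACACB holds CPT1 back and MLYCD removes malonyl-CoA. Inside, acyl-CoA dehydrogenases, hydratases, hydroxyacyl-CoA dehydrogenases and thiolases shorten the chain in repeated rounds and pass electrons on through ETF. PDK4 phosphorylates and switches off pyruvate dehydrogenase and so spares glucose, and UCP3 is a mitochondrial carrier of the uncoupling protein family. Both are induced when fatty acid supply is high, in part through the nuclear receptor PPARalpha encoded by Ppara.

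Of the 34 genes, Pdk4 alone was lower in HVCN1 null hearts past the test's threshold, and the enzymes of the oxidation spiral themselves did not pass it. Pdk4 fell to a mean of 241 ± 80.3 CPM (read counts scaled to library size, mean ± SD, n = 4) from 615 ± 187 CPM in WT hearts. Ucp3 had the next largest difference, with 31.4 ± 14.8 CPM against 64.1 ± 12.2 CPM, and missed the threshold. A pair of further genes of fatty acid metabolism outside the list, Angptl4 and Ehhadh, were also lower. Of 17 alternative fits, with other settings or 1 heart left out, 6 kept Pdk4 past the threshold. Angptl4 stayed past it in 14 and Ehhadh in 8.

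The stretches of DNA just before the start sites of Pdk4, Ucp3 and Ehhadh are shown because Pdk4 and Ucp3 had the largest differences of the 34 genes and Ehhadh was a DEG of the wider pathway with an entry in the RefSeq promoter table. They were read from that table on GRCm38.p6, from the last 250 bases before the RefSeq start, leaving out bases that GENCODE places inside the gene. PPARalpha binds with its partner RXR to repeats of AGGTCA set 1 base apart, so the letters AGGTCA were searched on both strands, and matches are in capitals. The Pdk4 stretch is chr6:5496310-5496528 (219 bases, minus strand), the Ucp3 stretch chr7:100472741-100472989 (249 bases, plus strand) and the Ehhadh stretch chr16:21787835-21788084 (250 bases, minus strand), each printed 5′ to 3′ along its gene.
Pdk4: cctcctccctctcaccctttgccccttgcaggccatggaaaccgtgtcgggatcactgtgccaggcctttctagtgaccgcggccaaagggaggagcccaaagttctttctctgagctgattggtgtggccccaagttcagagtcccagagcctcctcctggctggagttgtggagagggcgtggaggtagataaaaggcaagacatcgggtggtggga
Ucp3: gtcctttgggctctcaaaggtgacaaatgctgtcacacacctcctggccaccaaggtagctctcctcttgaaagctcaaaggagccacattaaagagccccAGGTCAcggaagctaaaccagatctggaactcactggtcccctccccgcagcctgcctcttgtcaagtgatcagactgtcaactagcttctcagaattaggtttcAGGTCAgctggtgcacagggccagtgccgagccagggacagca
Ehhadh: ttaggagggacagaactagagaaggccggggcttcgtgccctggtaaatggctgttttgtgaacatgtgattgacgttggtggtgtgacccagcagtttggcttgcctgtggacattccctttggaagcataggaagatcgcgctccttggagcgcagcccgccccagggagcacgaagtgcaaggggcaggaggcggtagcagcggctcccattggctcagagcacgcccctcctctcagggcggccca

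The Ucp3 stretch held AGGTCA at 2 places on the sense strand, 149 and 44 bases before the RefSeq start, and the Pdk4 and Ehhadh stretches held none. Over the full 250 bases, 7 of the 34 promoters listed for 30 of the genes held AGGTCA, or 20.6%, beside 14.0% of all 32851 promoters in the table. The 7 genes were Acadm, Acadvl, Cd36, Cpt1a, Echs1, Plin5 and Ucp3. The repeat AGGTCANAGGTCA, of which every copy also holds AGGTCA, was in none of these promoters and in 0.0335% of all. Such a match is only a match of letters in this window.

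Of the 34 genes, 16 had a positive and 18 a negative log2 fold change (HVCN1 null over WT), with a median of 0.00 and a range from -1.35 to 0.16. The median of all 14796 tested genes was -0.01. A single gene of the list, Pdk4, was a DEG by edgeR's quasi-likelihood test at a Benjamini-Hochberg adjusted p under 0.05, beside 169 DEGs or 1.14% of all tested genes (0.399% lower and 0.743% higher). With the unadjusted p under 0.05, 2 genes of the list were lower and 0 higher, against 11.0% of all tested genes in either direction and 5.52% lower. The groups did not overlap for 1 gene of the list, with all HVCN1 null hearts lower, against 7.06% of all tested genes in either direction and 3.45% lower. These counts do not set the list apart from the other genes. For 32 of the 34 genes the 95% confidence interval of the log2 fold change lay within -1 and 1. For 24 genes it lay within -0.5 and 0.5. Changes larger than 2-fold thus lay outside the interval for 32 genes. For these 32 genes the interval also covered 0, so changes inside it could not be told from 0.

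**Figure D1:**
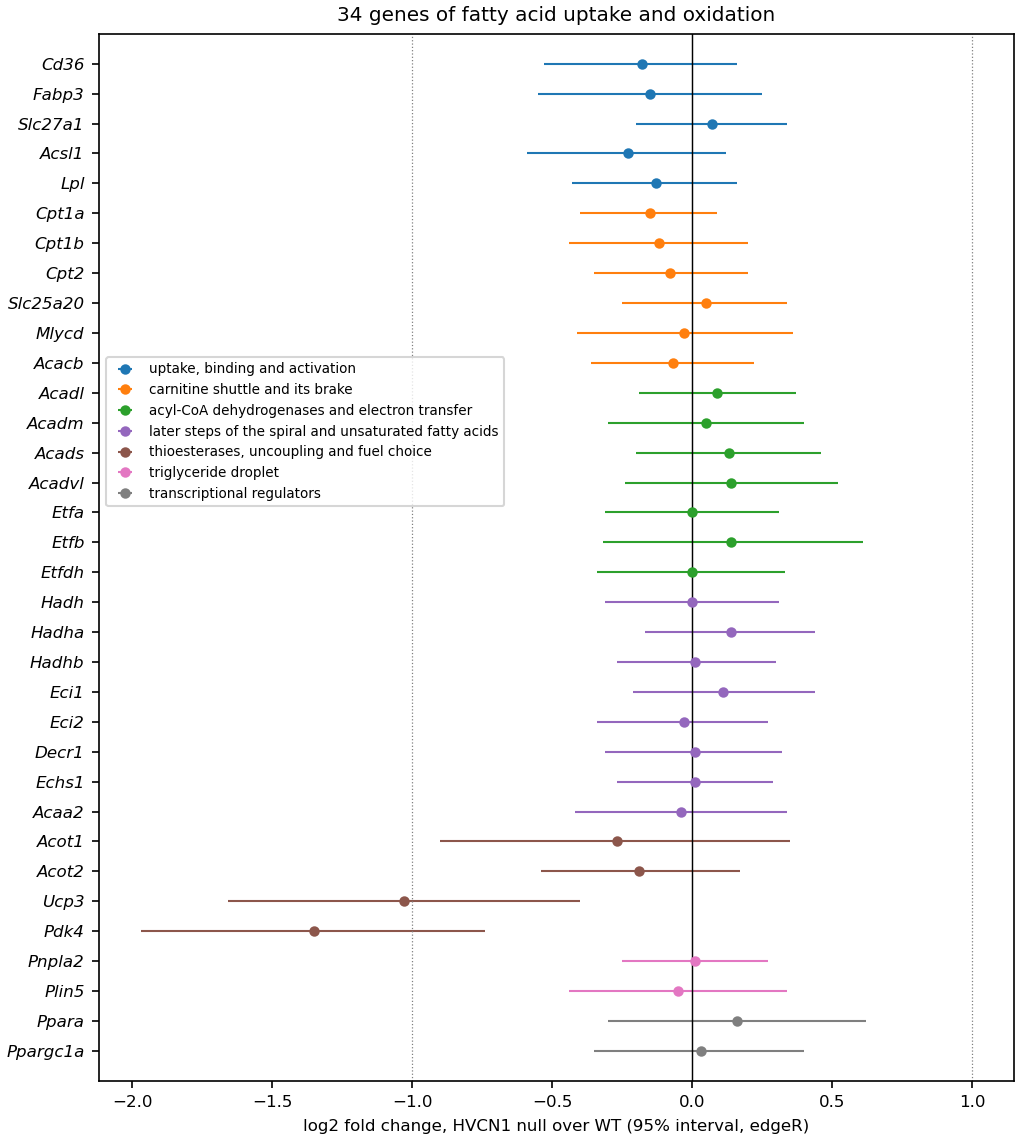
Log2 fold change (HVCN1 null over WT) of the 34 genes on the horizontal axis, with bars for the 95% interval from edgeR (n = 4 and 4) and colours for the role of each gene. Pdk4 at -1.35 and Ucp3 at -1.03 stand to the left, and the other 32 lie between -0.27 and 0.16 with intervals that cover 0.

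Pdk4 (ENSMUSG00000019577, chromosome 6, 5483351 to 5496309, minus strand) encodes the pyruvate dehydrogenase kinase that turns the heart away from glucose. HVCN1 null hearts 1 to 4 had 203, 265, 154 and 340 CPM. WT hearts 5 to 8 had 598, 811, 683 and 368 CPM. The groups did not overlap, but the highest HVCN1 null heart, 4, and the lowest WT heart, 8, lay close to each other. The WT mean was 2.56 times the HVCN1 null mean, a log2 fold change of -1.35 (SE 0.28, 95% interval -1.97 to -0.74, edgeR quasi-likelihood with Benjamini-Hochberg adjusted p = 0.0493). The direction was the same in 17 of 17 alternative fits, with log2 fold changes from -1.57 to -1.19, and the call held in 6 of them (Benjamini-Hochberg adjusted p from 2.16e-05 to 0.163). Leaving out any of HVCN1 null hearts 1 to 3 or WT hearts 5 to 7 ended the call, with edgeR quasi-likelihood adjusted p of 0.158, 0.0924, 0.121, 0.116, 0.163 and 0.0909 in that order.

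Pdk4 and its sister kinases act on the same enzyme, and Pdk1, Pdk2 and Pdk3 did not pass the test. On the level per length (RPKM, CPM per kb of exon), Pdk4 had a mean of 175 in WT and 68.5 in HVCN1 null hearts. Pdk2, a kinase chosen for this comparison after its values were seen, had 157 ± 15.3 RPKM in WT and 173 ± 16.6 RPKM in HVCN1 null hearts (log2 fold change 0.14, edgeR quasi-likelihood adjusted p = 0.78). Per length, the Pdk4 and Pdk2 means of the WT group were thus close, and among HVCN1 null hearts the Pdk4 mean was below that of Pdk2.

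Ucp3 (ENSMUSG00000032942, chromosome 7, 100472990 to 100486432, plus strand) was at 17.8, 32.7, 23.6 and 51.6 CPM in HVCN1 null hearts 1 to 4. In WT hearts 5 to 8 it was at 69.1, 76.6, 62.8 and 47.9 CPM. The groups overlapped only because HVCN1 null heart 4 lay above WT heart 8, the same pair that came close for Pdk4. The log2 fold change was -1.03 (SE 0.29, 95% interval -1.66 to -0.40), with an unadjusted p of 0.00453 and an adjusted p of 0.158 in edgeR's quasi-likelihood test with Benjamini-Hochberg adjustment. It was negative in 17 of 17 alternative fits (-1.38 to -0.83) and passed the threshold in 3, those with edgeR's exact test, with its likelihood ratio test and without HVCN1 null heart 4 (Benjamini-Hochberg adjusted p = 0.0231, 0.0223 and 0.0193).

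**Figure D2:**
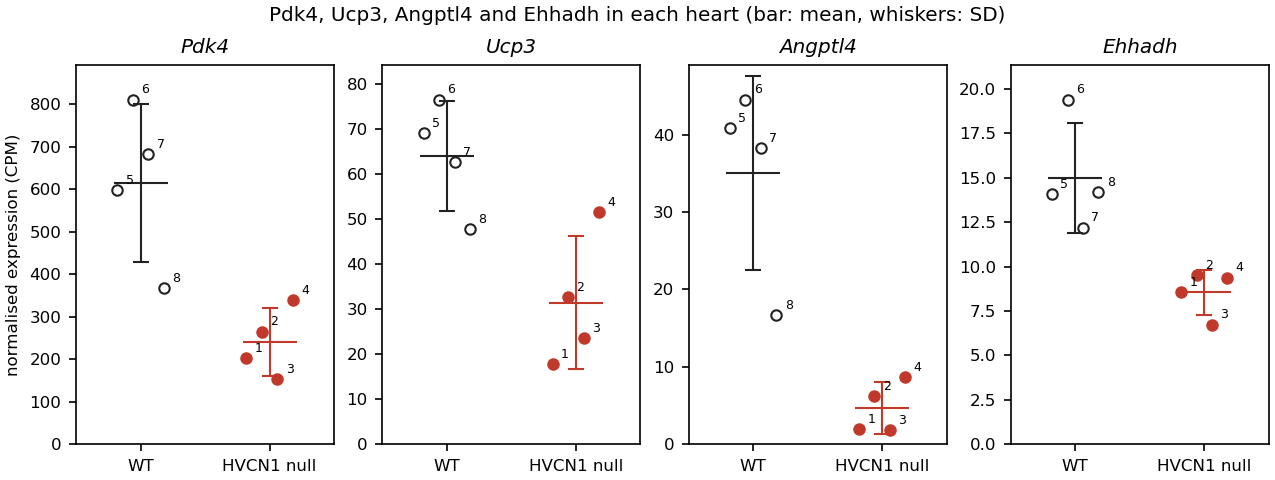
Normalised expression (CPM, vertical axis from 0) of Pdk4, Ucp3, Angptl4 and Ehhadh in each heart, with the heart number beside each point, the group mean as a horizontal bar and the SD as whiskers (n = 4 each). HVCN1 null heart 4 is the highest of its group for Pdk4, Ucp3 and Angptl4, and WT heart 8 the lowest of its group for the same 3 genes.

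The other genes grouped with Pdk4 and Ucp3 were Acot1 and Acot2, thioesterases that release free fatty acids from acyl-CoA in the cytosol and in mitochondria. Acot1 lay between 6.37 and 19.0 CPM in HVCN1 null and between 11.6 and 15.5 CPM in WT hearts, with a log2 fold change of -0.27 (SE 0.28), and Acot2 had -0.19 (SE 0.16). The Acot1 values of HVCN1 null hearts 1, 2 and 3 lay below the lowest WT heart, while heart 4 had the highest of all 8. The Acot1 log2 fold change was -0.67 without HVCN1 null heart 4 (edgeR quasi-likelihood adjusted p = 0.148) and -0.08 without HVCN1 null heart 2. Neither gene passed the test, and since their transcripts were 95.1% identical over 56.1% of Acot1, reads could have been split between them. Their summed counts gave -0.20 (edgeR quasi-likelihood adjusted p = 0.795).

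The 5 genes of uptake, binding and activation had a median log2 fold change of -0.15 and none passed the test. Acsl1, the acyl-CoA synthetase of heart, had the most negative, -0.23 (SE 0.16, 95% interval -0.59 to 0.12), with 639, 689, 573 and 826 CPM in HVCN1 null hearts and 639, 908, 717 and 944 CPM in WT hearts. Cd36, the fatty acid translocase, lay at 885 to 1160 CPM in HVCN1 null and 961 to 1370 CPM in WT hearts. The ranges overlapped for both genes. Fabp3, the cytosolic carrier of fatty acids, had 2360 ± 458 CPM against 2610 ± 510 CPM, and Lpl, the lipase of the capillary wall, 3920 ± 508 CPM against 4300 ± 465 CPM. Slc27a1, a further transporter, was the only one with a positive value (0.07, SE 0.12).

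The 6 genes of the carnitine shuttle and of the malonyl-CoA brake had a median of -0.07, from -0.15 for Cpt1a to 0.05 for Slc25a20. None passed the test, and all 6 intervals lay within -0.5 and 0.5. Cpt1a, the liver form of carnitine palmitoyltransferase I, had 42.0 ± 5.25 CPM in HVCN1 null and 46.8 ± 4.35 CPM in WT hearts. Mlycd, which removes malonyl-CoA, and Acacb, which makes it at the mitochondrial surface, had log2 fold changes of -0.03 (SE 0.17) and -0.07 (SE 0.13). Cpt1b, the muscle form and the main one of heart muscle, was counted at only 4.76 ± 0.637 and 5.19 ± 0.608 CPM. In GENCODE M21 another gene on the same strand, Gm44502, covers 81.4% of the Cpt1b exon bases. Gm44502 was not among the genes of the count table, and how reads shared by overlapping genes were assigned is not given in the sources used here, so the low Cpt1b level is not read as low expression.

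As counted, Cpt1a made up 81.1%, 79.4%, 78.8% and 78.9% of Cpt1a plus Cpt1b reads per kb of exon in HVCN1 null hearts 1 to 4. In WT hearts 5 to 8 the share was 79.9%, 81.6%, 81.9% and 76.0%. The group means of 79.6 ± 1.05% and 79.8 ± 2.69% differed by -0.273 percentage points (two-sided exact permutation test over 70 assignments, p = 0.829, n = 4 and 4, smallest possible p 0.0286). With the Cpt1b length taken without the bases other genes cover, the means were 42.1 ± 1.61% and 42.6 ± 3.93%. Because of the Cpt1b counts this is a comparison between groups and not the ratio of the isoforms in the heart.

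The 7 genes of the acyl-CoA dehydrogenases and of electron transfer to the respiratory chain had a median of 0.09, with 5 positive and 2 negative values, and none passed the test. Acadl, Acadm, Acads and Acadvl, which act on long, medium, short and very long chains, had log2 fold changes of 0.09, 0.05, 0.13 and 0.14 (SE 0.13, 0.16, 0.15 and 0.17). Acadm lay at 878 to 1200 CPM in HVCN1 null and 785 to 1190 CPM in WT hearts, nearly the same range. Etfa and Etfdh, a subunit of the electron carrier ETF and the dehydrogenase that takes its electrons, both had 0.00 (SE 0.14 and 0.15). Etfb, the partner subunit of Etfa, had 0.14 (SE 0.21), and 58.3% of its exon bases are covered by the same-strand genes Gm45233 and Mir7051 together in GENCODE M21. The opposite-strand gene Dvl2 covers 42.9% of the Acadvl exon bases, and the strand setting of the counting is not given in the sources used here.

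The 8 genes of the later steps and of unsaturated fatty acids lay between -0.04 and 0.14, with a median of 0.01 and all intervals within -0.5 and 0.5. Hadha and Hadhb, the subunits of the mitochondrial trifunctional protein, had 1320 ± 162 and 924 ± 85.5 CPM in HVCN1 null hearts. In WT hearts they had 1200 ± 180 and 915 ± 134 CPM, and the log2 fold changes were 0.14 (SE 0.14) and 0.01 (SE 0.13). Hadh, the dehydrogenase for shorter chains, had 565 ± 84.4 against 565 ± 75.3 CPM. Acaa2, a thiolase of the spiral, had 563 ± 139 against 579 ± 70.7 CPM, and Echs1, the short-chain hydratase, 253 ± 36.0 against 252 ± 27.3 CPM. Eci1, Eci2 and Decr1, needed for double bonds, had 0.11, -0.03 and 0.01, and none of the 8 genes passed the test.

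Pnpla2, the adipose triglyceride lipase that opens the lipid droplet, had 398 ± 45.0 CPM in HVCN1 null and 395 ± 35.5 CPM in WT hearts. Plin5, a droplet coat protein that ties droplets to mitochondria, had 106 ± 26.6 against 109 ± 17.8 CPM. The transcripts of the regulators did not pass the test either. Ppara was at 25.1 ± 4.26 CPM in HVCN1 null and 22.5 ± 6.42 CPM in WT hearts, the highest fold change of the list (0.16, SE 0.21), and WT heart 5 with 13.6 CPM was the lowest of the 8. Ppargc1a, the coactivator of mitochondrial genes, had 83.2 ± 17.3 against 81.7 ± 13.9 CPM (0.03, SE 0.17).

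Among the 34 genes the level per length spanned from Fabp3, with a WT mean of 3170 RPKM, to Cpt1b with 1.54 RPKM as counted. Lpl (410 RPKM), Acaa2 (382), Acadl (381) and Cd36 (324) followed Fabp3 in WT mean level per length. Pdk4 ranked 9 and Ucp3, at 20.5 RPKM, ranked 28 of 34 in WT hearts. For most genes the points of the groups lay over each other, and the separation of Pdk4 and, in part, Ucp3 was visible on this scale.

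**Figure D3:**
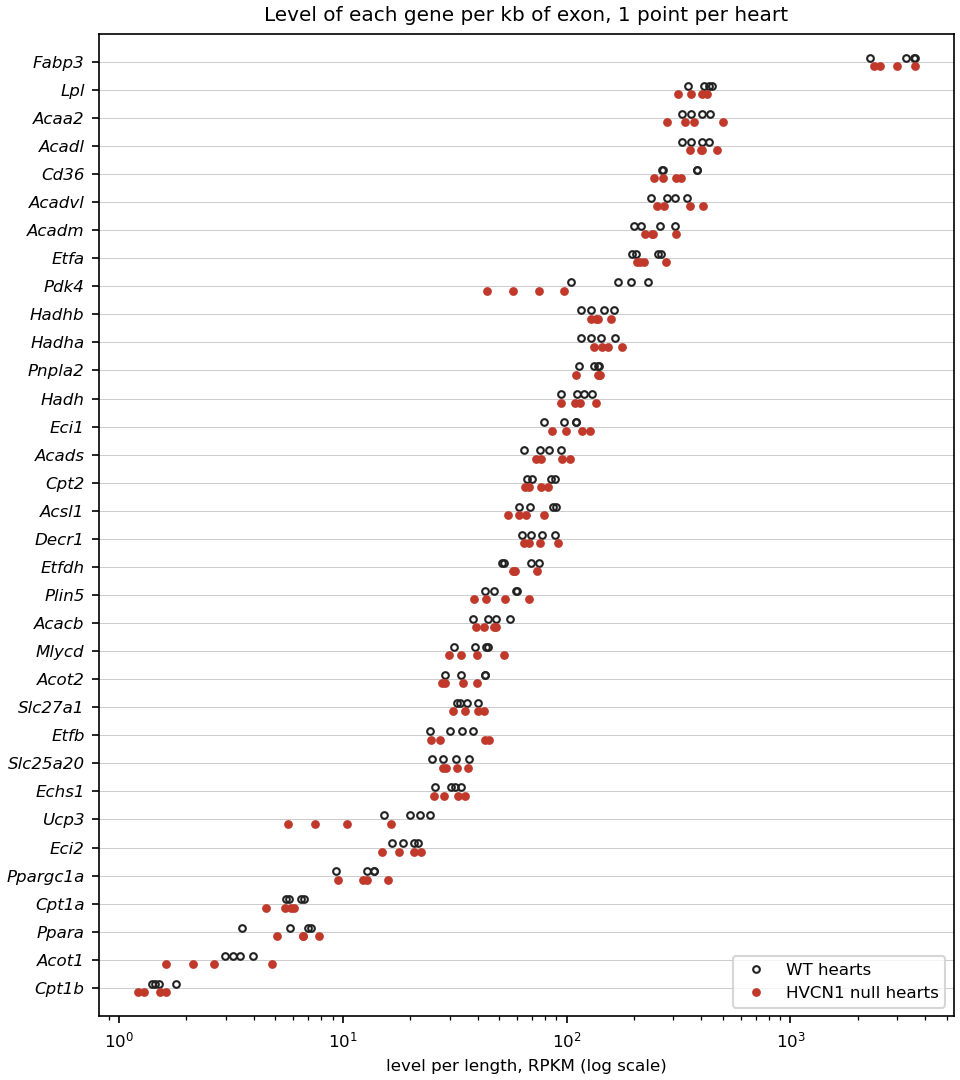
Level per length (RPKM, log axis) of the 34 genes in each heart, ordered by the WT mean, with open points for WT and filled points for HVCN1 null hearts. Fabp3 is highest at a WT mean of 3170 RPKM, and the 4 HVCN1 null points of Pdk4 lie to the left of its 4 WT points.

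Across most of these genes, hearts of the same genotype differed from each other more than the group means did. The deviation of each gene from its own mean over the 8 hearts, on the log2(CPM + 0.5) scale, was taken for the 32 genes other than Pdk4 and Ucp3. HVCN1 null hearts 1 to 4 had median deviations of -0.15, -0.09, 0.01 and 0.25, and WT hearts 5 to 8 had -0.09, 0.11, -0.23 and 0.21. HVCN1 null heart 4 and WT hearts 6 and 8 were high, and HVCN1 null heart 1 and WT heart 7 were low, so each genotype held hearts at both ends. The group means of these medians were 0.01 ± 0.18 and 0.00 ± 0.20 (SD, n = 4 each). In HVCN1 null heart 4, 31 of the 32 genes were above their own mean, and in WT heart 7 only 2 were. Of all 34 genes, 17 had their highest value in HVCN1 null heart 4 and 14 their lowest in WT heart 7. Pdk4 was below its own mean in HVCN1 null heart 4 and above it in WT heart 7. Its groups did not overlap, so these positions do not show whether it followed the order of the other genes. Within the HVCN1 null group Pdk4 was highest in heart 4 (340 CPM), where most of the other genes were high. Among WT hearts it was lowest in heart 8 (368 CPM), where the median deviation of the others was 0.21.

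**Figure D4:**
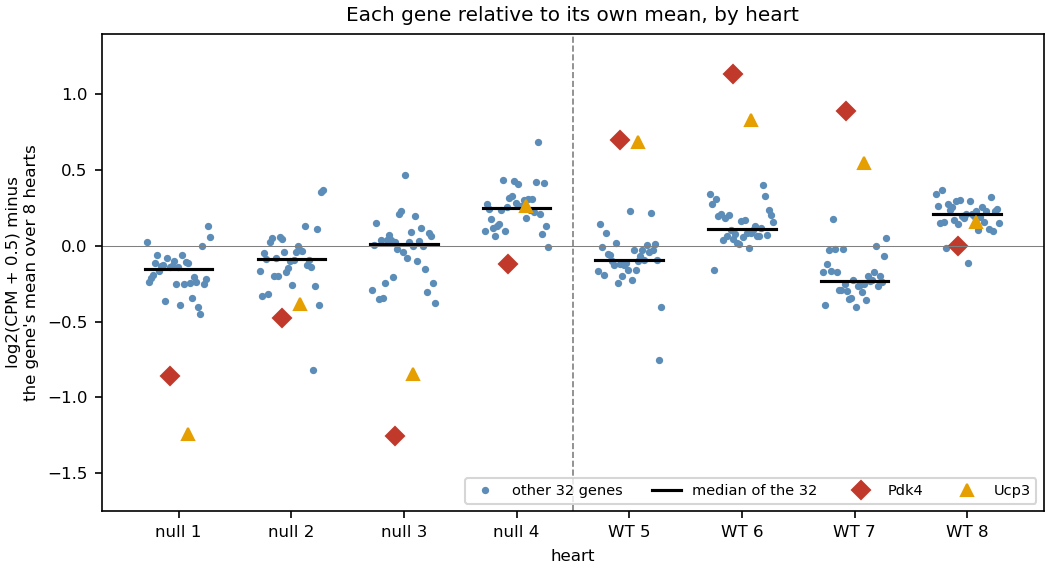
Deviation of each gene from its own mean over the 8 hearts, on the log2(CPM + 0.5) scale, by heart, with small points for 32 genes, a black line for their median, diamonds for Pdk4 and triangles for Ucp3. The median line is highest in HVCN1 null heart 4 (0.25) and lowest in WT heart 7 (-0.23), while Pdk4 is above its mean in WT hearts 5 to 7 and below it in HVCN1 null hearts 1 to 4.

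The rest of the pathway was read from 99 further genes of fatty acid metabolism, of which 97 were tested. Of these, 38 had a positive and 59 a negative log2 fold change, with a median of -0.04, and 2 were DEGs, both lower, beside 1.14% of all tested genes (0.399% lower). With the unadjusted p under 0.05, 10 were lower and 0 higher, beside 11.0% of all tested genes in either direction and 5.52% lower. In 6 the groups did not overlap, all lower, beside 7.06% of all tested genes in either direction and 3.45% lower. Among these 6 was Slc27a4, with a log2 fold change of only -0.04. Counted without regard to direction, both totals lay near the shares of all tested genes. The genes of ketone bodies, of further mitochondrial steps and the further regulators held no gene with an unadjusted p under 0.05.

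Angptl4 (ENSMUSG00000002289, chromosome 17, 33773750 to 33781830), which encodes a secreted inhibitor of lipoprotein lipase, had the largest difference of these 97. HVCN1 null hearts 1 to 4 had 1.95, 6.23, 1.82 and 8.65 CPM, and WT hearts 5 to 8 had 40.8, 44.5, 38.2 and 16.7 CPM. The groups did not overlap, and HVCN1 null heart 4 and WT heart 8 were again the nearest. The WT mean was 7.52 times the HVCN1 null mean, and the log2 fold change was -2.89 (SE 0.49, 95% interval -3.97 to -1.81, edgeR quasi-likelihood with Benjamini-Hochberg adjusted p = 0.0202). It lay between -3.36 and -2.63 in 17 alternative fits and was called in 14, the exceptions being the fits without HVCN1 null heart 1, WT heart 5 or WT heart 6 (adjusted p = 0.0536, 0.0647 and 0.0684).

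Ehhadh (ENSMUSG00000022853, chromosome 16, 21761287 to 21787807), the bifunctional enzyme of peroxisomal oxidation, was at 8.56, 9.52, 6.73 and 9.38 CPM in HVCN1 null hearts 1 to 4. It was at 14.1, 19.4, 12.2 and 14.2 CPM in WT hearts 5 to 8, without overlap. The log2 fold change was -0.80 (SE 0.16, edgeR quasi-likelihood with Benjamini-Hochberg adjusted p = 0.0478), between -0.89 and -0.66 in 17 alternative fits, and the call held in 8 of them (adjusted p from 0.000621 to 0.129). The other 13 tested peroxisomal genes did not pass the test.

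The remaining genes with an unadjusted p under 0.05 missed the adjusted threshold. Lipe, the hormone-sensitive lipase, had 45.6 ± 5.34 CPM in HVCN1 null and 63.1 ± 3.93 CPM in WT hearts without overlap (log2 fold change -0.47, SE 0.10, edgeR quasi-likelihood adjusted p = 0.0596). Plin2, the general droplet coat protein, had 40.1 ± 3.95 against 53.2 ± 8.18 CPM without overlap (-0.41, edgeR quasi-likelihood adjusted p = 0.184). Scd4, a stearoyl-CoA desaturase of the heart, had 9.08 ± 3.69 against 26.5 ± 10.1 CPM and overlapped only between HVCN1 null heart 3 and WT heart 8 (-1.55, edgeR quasi-likelihood adjusted p = 0.0885). Acsl6, Vldlr, Mgll, Dgat2 and Acss2 had -0.50, -0.37, -0.31, -0.29 and -0.16, with adjusted p from 0.319 to 0.447 by edgeR's quasi-likelihood test.

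**Figure D5:**
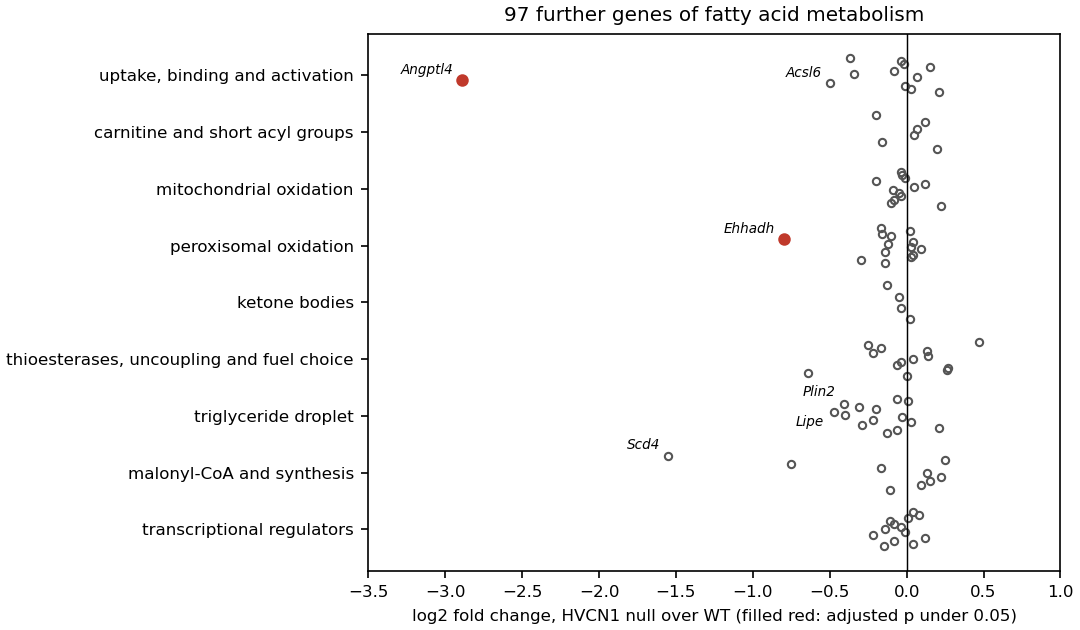
Log2 fold change (HVCN1 null over WT, horizontal axis) of 97 further genes of fatty acid metabolism by role, with filled red points for an adjusted p under 0.05. Angptl4 at -2.89 and Ehhadh at -0.80 are the red points, and Scd4 at -1.55 is the next farthest to the left.

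Read by regulator instead of by step, 22 genes known to respond to PPARalpha were listed, of which 17 were tested. Pdk4, Angptl4 and Ehhadh were the DEGs among them, all lower, where 0.399% of all tested genes were DEGs and lower. Of the 17, 13 had a negative and 4 a positive log2 fold change, with a median of -0.14. Over all tested genes 7794 of 14796 were negative. Others of the same list, such as Hadha (0.14), Acadm (0.05) and Slc25a20 (0.05), lay near 0. The highest value of the list was that of Ucp2 (0.47, SE 0.37), which did not pass the test. The list is not independent of the values above, since 11 of its genes belong to the 34.

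A few values of these libraries stand beside the lower genes. Hvcn1 itself gave 16 counts over the 4 HVCN1 null and 318 over the 4 WT hearts, which checks the labels. Total counts ran from 25851255 to 38874640 per heart, and mitochondrial genes took 23.7% to 30.2% of them. The cardiomyocyte markers were high in every heart (summed 45600 to 57600 CPM). Of these 6 markers, 2 had a positive and 4 a negative log2 fold change, and none was a DEG. Actc1 was lower without overlap, at 6080 to 6730 CPM in HVCN1 null and 7640 to 10500 CPM in WT hearts. Its log2 fold change was -0.51 (edgeR quasi-likelihood adjusted p = 0.105). Summed atrial markers varied within both genotypes, from 320 to 4600 CPM in HVCN1 null and from 86.8 to 8470 CPM in WT hearts, with 0 of 6 markers at 0 throughout. Without the 4 hearts richest in Myl7, Sln and Myl4 (HVCN1 null 2 and 3, WT 5 and 7) the log2 fold change was -1.10 for Pdk4, -0.83 for Ucp3, -2.51 for Angptl4 and -0.89 for Ehhadh, and without the other 4 it was -1.62, -1.23, -3.26 and -0.69. With 2 hearts per group, none of the 4 genes passed the threshold. Summed adipocyte markers, 6 genes with none at 0 throughout, lay at 2.58 to 28.1 CPM in HVCN1 null and 0.433 to 64.1 CPM in WT hearts, highest in WT heart 7. Summed macrophage markers lay at 156 to 202 and 174 to 251 CPM, and summed erythroid markers at 1290 to 8380 and 3010 to 15200 CPM. All 6 macrophage and all 5 erythroid markers had a negative log2 fold change, with medians of -0.30 and -0.96. The 5 tested atrial and 4 tested adipocyte markers were all negative too, and no marker of these 4 lists was a DEG. Of 11 tested clock genes, Per1 was higher in HVCN1 null hearts (90.5 ± 17.2 against 43.9 ± 8.91 CPM, log2 fold change 1.04, edgeR quasi-likelihood adjusted p = 0.0178), and Per2 (1.17, edgeR quasi-likelihood adjusted p = 0.0527) and Ciart (0.85, edgeR quasi-likelihood adjusted p = 0.135) also had groups that did not overlap. Over all tested genes, groups did not overlap for 7.06% and the unadjusted edgeR quasi-likelihood p was under 0.05 for 11.0%, in either direction. At an unadjusted p under 0.05 in edgeR's quasi-likelihood test, 5 of the 11 clock genes were higher and 1 was lower. Besides the 3 genes above these were Dbp (0.99) and Per3 (0.46), both higher, and Arntl (-0.45), lower. Their adjusted p in that test was 0.264, 0.38 and 0.366. Nr1d1 (-0.04) and Tef (0.10) of the same list lay near 0. Of 6 genes known to respond to glucocorticoids, Per1 was the DEG, and the others lay on both sides of 0, at 0.53 for Fkbp5, 0.33 for Tsc22d3, 0.18 for Sgk1, -0.31 for Klf9 and -0.47 for Zbtb16 (edgeR quasi-likelihood adjusted p from 0.362 to 0.822). The part of these values in the lower Pdk4, Angptl4 and Ehhadh was not tested. The fits with atrial transcripts, chosen after seeing the data, do not measure that part.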

How the data were processed

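Hearts of 4 HVCN1 null and 4 WT mice were grouped by the genotype in the labels. The authors selected poly-A RNA, aligned paired reads with STAR and counted them per Ensembl gene with featureCounts, without normalization, and deposited these read counts (totals 25851255 to 38874640 per heart, which limit precision at low counts). The processing notes name mm10 and GRCm38, while the methods text names a human genome. The gene identifiers are from mouse. Versions, annotation release, strand setting and treatment of reads shared by genes are not given in the sources used here.

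Identifiers without their version were matched to GENCODE M21 on GRCm38 (38872 of 39056, 99.5%). Pairs of hearts within a group differed far beyond sampling noise (chi-square per degree of freedom 16.5 to 86.8), so none was counted as a duplicate. CPM values and DEGs came from edgeR 4.0.16 in R 4.3.3 (TMM, filterByExpr, quasi-likelihood test, Benjamini-Hochberg adjusted p under 0.05 over 14796 genes, no limit on the fold change). RPKM is CPM per kb of merged exons. The exact permutation test was made in Python 3.11.15 with numpy 2.4.6, and similar transcripts were found with BLAST+ 2.17.0 (identity of at least 90%). The fits were tested on simulated data.

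The 17 alternative fits used RLE or no scaling, no mitochondrial genes, other filters (none, or CPM above 1 in 4 hearts), DESeq2 1.42.0, limma 3.58.1 voom, the exact test and the likelihood ratio test of edgeR, and each heart left out. Other thresholds, raw counts for the Cpt1a share and a sum of Acot1 and Acot2 were also tried. The atrial alternatives and a shorter Cpt1b length were chosen after seeing the data. The members and lists were chosen with earlier results of these data known. Of the 34 genes, those past an adjusted or unadjusted p of 0.05 or without overlap were described heart by heart, and the highest-expressed and the largest and smallest fold changes were named, with examples per role. Of the further genes, those past either p were named. Those examples and Slc27a4 were chosen after their values were seen. Some members of the gene lists enter the counts without being named.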

Additional observations from a re-analysis of the deposited data

Results flagged for a closer look

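In 2 of the 88 groups of 4 hearts checked, 1 heart lay apart from the other 3 by Dixon's test, which flags about 1 group in 20 by chance, so 2 is fewer than chance alone would give. Etfdh, the dehydrogenase that takes electrons from ETF, was at 553 CPM in HVCN1 null heart 4, against 433 to 442 CPM in the other 3 HVCN1 null hearts. Pnpla2, the adipose triglyceride lipase, was at 331 CPM in HVCN1 null heart 1, against 416 to 426 CPM in the other 3. Both hearts are those in which the 34 genes as a whole were at the ends of the HVCN1 null range.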

How the results depend on the processing

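The count of DEGs among the 34 genes was 1 and moved easily. It was 0 at an adjusted p under 0.01, with RLE scaling, with library sizes not scaled, without mitochondrial genes, with CPM above 1 in 4 hearts, with voom and in both sets of 4 hearts split by atrial transcripts, and 2 with edgeR's exact and likelihood ratio tests. Leaving out 1 heart gave 0 to 2, and 2 without HVCN1 null heart 4. The DEGs over all tested genes were 367 with the exact test, 376 with the likelihood ratio test and 466 with DESeq2, beside 169. They were 71 without the hearts rich in atrial transcripts and 24 without the others, and 71 (without WT heart 6) to 152 with 1 heart left out. Of the further fatty acid genes, 2 were DEGs, with 1 under unscaled library sizes and voom, 4 under the exact and likelihood ratio tests and DESeq2, and 0 to 2 with 1 heart left out. Without the hearts rich in atrial transcripts 1 was called, which was Ucp2, and without the others 0. With atrial transcripts as a covariate, 209 genes were DEGs, among them Pdk4, Angptl4, Ehhadh and Scd4.

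The median of the 34 genes lay between -0.11 and 0.11 in all alternatives. The difference in the Cpt1a share ran from -1.54 to 0.411 percentage points with 1 heart left out, and was 0.306 without WT heart 6 and 0.411 without WT heart 7. Ppara lay between -0.01 and 0.28 with 1 heart left out, turned to -0.01 without WT heart 5 and to -0.08 without the hearts rich in atrial transcripts, where Eci1 turned to -0.03. Of the 18 genes with a log2 fold change under 0.10 in size, 16 changed sign at least once, between -0.22 and 0.18, and 0 were called. For the other changes the cause was not tested. No paired analysis was possible because no replicate number occurs in both genotypes.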
